A study of Mus musculus with 6 samples.

Results

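The genes of cholesterol and fatty acid synthesis, with the SREBP proteins that regulate them, were examined in cultured mouse melanoma cells. The set was a list of 35 genes named for their place in these pathways. Of these, 32 had an array row annotated with exactly 1 gene symbol, out of 22180 genes measured this way. Acat2 had no such row, and Idi1 and Scd2 lay on rows shared with a second symbol, so these 3 were not analysed here. For Scap, which had 2 rows, the row with the higher mean was used.

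The cells were RET cells, a mouse melanoma line with the strain label C57BL\6. The Angpt2 shRNA-1 group consisted of 3 biological replicates transduced with 1 short hairpin RNA against Angpt2, and the control shRNA group of 3 replicates transduced with a non-targeting hairpin according to their genotype label. The control titles read GFP instead, and the labels do not say what this refers to. Every culture was grown for 24 h in high-glucose medium with fetal calf serum, and nothing else was added to either group. The labels describe neither a rescue nor whether the transduced cells were a clone, so silencing of Angpt2, off-target action of the hairpin and prior differences between the cell populations cannot be told apart.

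Cholesterol is built from acetyl-CoA through mevalonate, isoprenoid diphosphates and squalene, and long-chain fatty acids are built from the same acetyl-CoA by way of malonyl-CoA. The SREBP transcription factors, encoded by Srebf1 and Srebf2, are held in the endoplasmic reticulum with the escort protein Scap and the Insig proteins while sterol is plentiful. When sterol is scarce they move to the Golgi, are cut, and enter the nucleus, where SREBP2 mainly drives the sterol genes and SREBP1c mainly the fatty acid genes. Excess sterol acts through the nuclear receptor LXR, which raises the efflux pumps Abca1 and Abcg1 and the gene of SREBP1c itself.

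The sequences in front of these genes were inspected for the letters that SREBP and its partner NF-Y are known to bind. RefSeq windows of 300 bases (build GRCm38.p6), running from 250 bases before to 50 bases after each annotated start, were found for 25 of the 32 genes, in 33 windows. The motif TCACNCCA, a core of the sterol regulatory element, was searched on both strands and was present in the windows of 3 genes, Hmgcs1, Msmo1 and Srebf2, which was 9.09% of the gene set's windows against 4.36% of all 32851 windows. CCAAT, the box bound by NF-Y, was present for 13 of the 13 sterol enzyme genes that had a window and in 81.2% of their 16 windows, against 37.4% of all windows. Among fatty acid enzyme genes CCAAT was present for 3 of 6. Counted by gene, it was present for 41.1% of all genes with a window. No position was shared by matches of both motifs in the stretches printed here.

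The upstream stretches of the 3 genes with the sterol element core are given because they also carry CCAAT, and capitals mark every match to either motif on either strand (ATTGG is CCAAT read from the other strand). Each stretch holds the 250 bases before the start, 5′ to 3′ on the gene's strand. Hmgcs1 lies at chr13:119690101-119690350 on the plus strand, Msmo1 at chr8:64733579-64733828 on the minus strand and Srebf2 at chr15:82147019-82147268 on the plus strand.
Hmgcs1: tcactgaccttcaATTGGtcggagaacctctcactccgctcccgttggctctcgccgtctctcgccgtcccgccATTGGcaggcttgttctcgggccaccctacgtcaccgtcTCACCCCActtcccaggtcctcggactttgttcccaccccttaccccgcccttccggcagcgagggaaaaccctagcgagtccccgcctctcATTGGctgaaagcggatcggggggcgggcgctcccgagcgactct
Msmo1: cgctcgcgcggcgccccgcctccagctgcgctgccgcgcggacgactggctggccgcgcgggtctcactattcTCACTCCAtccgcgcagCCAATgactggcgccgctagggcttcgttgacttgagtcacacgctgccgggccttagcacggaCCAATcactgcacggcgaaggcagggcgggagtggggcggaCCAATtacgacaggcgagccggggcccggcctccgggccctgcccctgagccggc
Srebf2: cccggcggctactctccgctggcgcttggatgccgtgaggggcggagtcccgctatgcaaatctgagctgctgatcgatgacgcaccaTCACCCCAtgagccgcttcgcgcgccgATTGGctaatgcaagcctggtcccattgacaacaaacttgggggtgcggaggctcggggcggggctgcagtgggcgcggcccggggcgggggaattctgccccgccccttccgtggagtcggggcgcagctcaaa
In Hmgcs1 the sterol element core began 137 bases before the start, between CCAAT matches at 176 and 45 bases. In Msmo1 it began at 177 bases, ahead of CCAAT matches at 160, 96 and 55 bases. In Srebf2 it began at 162 bases, with 1 CCAAT match at 135 bases. A match describes these letters and does not show that a factor was bound.

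Angpt2, which encodes the secreted ligand angiopoietin-2, gave intensities of 100.2, 122 and 122 on Angpt2 shRNA-1 arrays 1, 2 and 3, against 195, 372 and 326 on control shRNA arrays 1, 2 and 3. The groups did not overlap, and the log2 fold change was -1.33 (SE 0.21). Its limma adjusted p over all genes was 1.00, or 0.046 when replicate number was fitted as a block, and an exact permutation test gave p = 0.1, below which a design of 3 and 3 arrays cannot go. Without control replicate 1 the log2 fold change of Angpt2 was -1.61 and its limma adjusted p was 0.0116. The 11 melanocyte lineage markers summed to an intensity of 43770 to 46906 in Angpt2 shRNA-1 cells and 44681 to 49143 in control cells. Of these, Kit was dim, at 84.3 to 101.6 in Angpt2 shRNA-1 cells and 85.2 to 109.8 in control cells, and the other 10 were bright. Log2 fold changes were above 0 for 2 of the 11 markers (median -0.05), against 45.2% of all genes, and none was called. Mitf was at -0.20 (SE 0.08), with every Angpt2 shRNA-1 array below every control array, as for 5.48% of all genes. No single marker of leukocytes, endothelium, fibroblasts, adipocytes or keratinocytes exceeded 174.5 on any array. Array medians over all rows were 74.5 to 75.9 in Angpt2 shRNA-1 cells and 75.6 to 76.2 in control cells. Control replicate 1 was the highest array for 5716 of the 22180 genes and the lowest for 4322, more than any other array in either direction. Control replicate 2 came next, as the highest for 4736 and the lowest for 4226. In RNA from whole cultures, fewer cells expressing a gene and less RNA per cell cannot be told apart.

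No gene of the set passed the test. At an adjusted p of 0.05 the limma fit called 0 of the 32 genes, and 0% of all genes. At an unadjusted p under 0.05 it held 1 of the 32, Ebp, a share close to the 3.76% of all genes. With the replicate number as a block, Ebp was not among them, and 2 of the 32 had an unadjusted limma p under 0.05. They were Fdps (0.026) and Abca1 (0.044). Over all 22180 genes, 434 higher and 581 lower genes were under 0.05 in that fit. The arrays of the groups did not overlap for 1 member that was higher, Ebp, against 3.53% of all genes, and for 1 that was lower, Tm7sf2, against 5.48%. Positive log2 fold changes were found for 26 of 32 members, while 45.2% of all genes were positive. The median log2 fold change was 0.13 for the members and -0.01 for all genes, and members ranged from -0.22 (Abca1) to 0.31 (Fdps), which is 1.24-fold. Without control replicate 1 the count of positive members was 19 of 32 and their median was 0.03. Without control replicate 3 the count was 28 of 32.

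The members varied more between cultures of 1 group than most genes did. Their median standard deviation within a group was 0.20 on the log2 scale, against 0.12 for all genes and 0.14 for genes above the median level. For 27 of the 32 the difference between group means was smaller than the gene's own within-group standard deviation. The same count was not made over all genes, so it does not set the members apart.

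**Figure D1:**
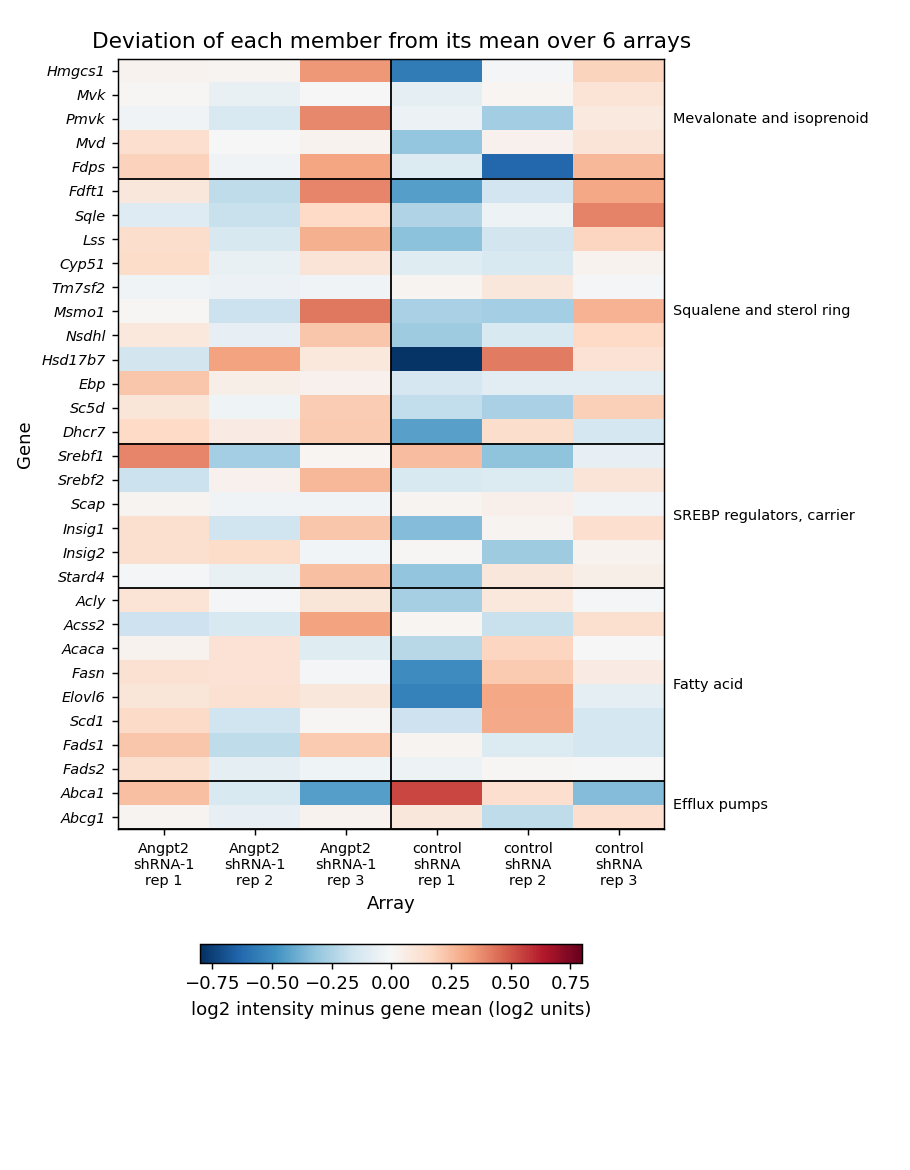
Log2 intensity of the 32 genes on each of the 6 arrays (columns), as the deviation from the gene's own mean over all arrays in log2 units, with rows grouped by role and red for above the mean. Most sterol enzymes were high on replicate 3 of both groups and low on control replicate 1, and Abca1 was highest on control replicate 1 and lowest on Angpt2 shRNA-1 replicate 3.

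Sterol enzymes were high on replicate 3 in both groups, while the order of the other replicates differed between the groups. The median deviation of the 16 sterol enzymes from their own mean over the 6 arrays was 0.09, -0.05 and 0.21 on Angpt2 shRNA-1 arrays 1, 2 and 3, and -0.25, -0.10 and 0.14 on control arrays 1, 2 and 3. The replicate 3 array was the highest within its group for 10 of 16 enzymes in Angpt2 shRNA-1 cells and for 13 of 16 in control cells. The lowest array was replicate 2 for 14 of 16 in Angpt2 shRNA-1 cells, and replicate 1 for 10 of 16 in control cells. Over all genes, replicate 3 was the highest within its group for 8493 of 22180 in Angpt2 shRNA-1 cells and for 6209 in control cells. Replicate 2 was the lowest for 7415 in Angpt2 shRNA-1 cells, and replicate 1 for 7216 in control cells.

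Fatty acid enzymes had a different order of cultures. Their median deviation was 0.12, -0.04 and 0.05 on Angpt2 shRNA-1 arrays 1, 2 and 3, and -0.19, 0.13 and -0.01 on control arrays 1, 2 and 3. The replicate 3 array was the highest within its group for 1 of 8 enzymes in each group. In Angpt2 shRNA-1 cells 5 of 8 were highest on replicate 1, and in control cells 6 of 8 were highest on replicate 2 and 6 of 8 lowest on replicate 1. The counts over all 22180 genes were 6756, 7520 and 7216 in the same order. Both sets of enzymes were thus low on control replicate 1, and they parted on control replicate 2, where sterol enzymes were below and fatty acid enzymes above their means.

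The difference between both sets in a culture, sterol minus fatty acid median deviation, was -0.03, -0.01 and 0.16 in Angpt2 shRNA-1 cells and -0.06, -0.23 and 0.14 in control cells. It averaged 0.04 ± 0.10 in Angpt2 shRNA-1 cells and -0.05 ± 0.19 in control cells (SD, n = 3 each), and the groups overlapped. Over the 6 cultures the medians of both sets correlated at r = 0.55 (Spearman's rho 0.26), and at r = -0.19 without the 2 cultures farthest from the sterol median, Angpt2 shRNA-1 replicate 3 and control replicate 1. The relation rests on those cultures and is given as a description, since each point shares its array between both measures.

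**Figure D2:**
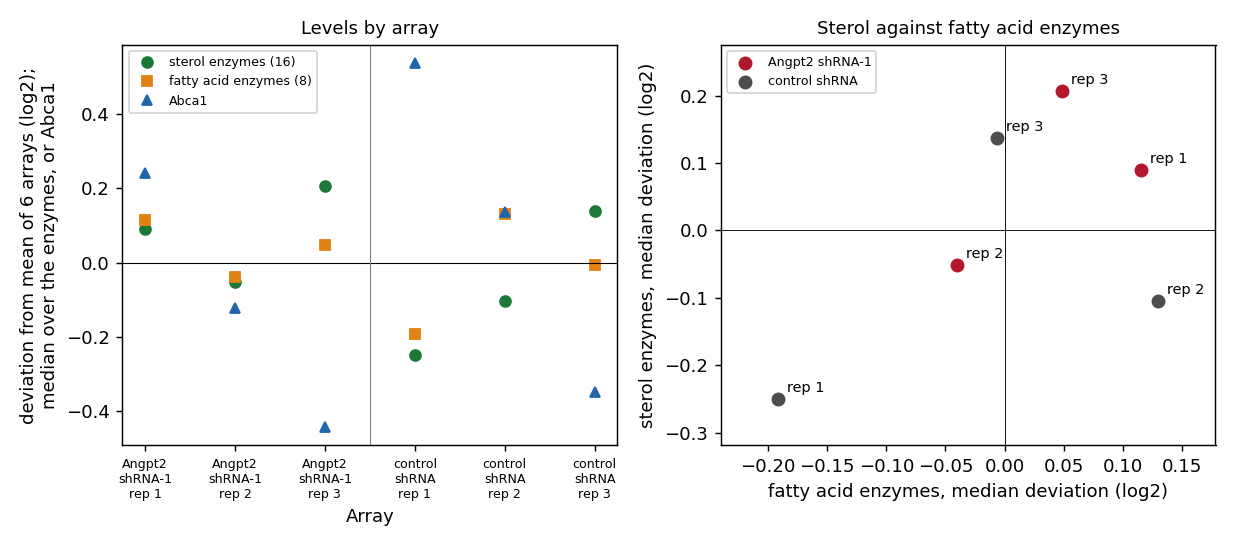
Left, how far each array lay from the 6-array mean (median over genes, log2 units) for 16 sterol enzymes (circles) and 8 fatty acid enzymes (squares), with Abca1 (triangles); right, sterol against fatty acid medians, a point per culture. Sterol enzymes were high on both replicate 3 arrays (0.21 and 0.14), where fatty acid enzymes lay near 0.05 and -0.01.

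Between the groups, log2 fold changes were above 0 for 4 of 5 measured enzymes of the mevalonate and isoprenoid steps (median 0.16). Hmgcs1, the synthase that makes HMG-CoA, gave intensities of 914, 911 and 1138 in Angpt2 shRNA-1 cells, against 607, 888 and 1011 in control cells. Its log2 level averaged 9.94 ± 0.18 in Angpt2 shRNA-1 cells and 9.67 ± 0.38 in control cells (SD, n = 3 each), a log2 fold change of 0.27 (SE 0.18). The groups overlapped, and without control replicate 1, its lowest array, the log2 fold change was 0.05. Leaving out control replicate 3 gave 0.42. Within replicate numbers 1, 2 and 3 the differences were 0.59, 0.04 and 0.17.

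Fdps, which makes farnesyl diphosphate, gave 1364, 1176 and 1494 in Angpt2 shRNA-1 cells, against 1115, 779 and 1445 in control cells. Only control replicate 2 was well below the rest. The log2 fold change of Fdps was 0.31 (SE 0.20), and it was positive within each replicate number at 0.29, 0.59 and 0.05. It was 0.08 without control replicate 2, the omission that lowered it most, and 0.34 without control replicate 1. Pmvk, the kinase acting after mevalonate kinase, gave 309, 290.2 and 412 in Angpt2 shRNA-1 cells, against 306, 260.5 and 333 in control cells. Its log2 fold change was 0.16 (SE 0.15), with replicate 3 highest in each group and the groups overlapping. It was 0.01 without Angpt2 shRNA-1 replicate 3, the omission that lowered it most, and 0.18 without control replicate 1. Mvd, the diphosphomevalonate decarboxylase, was at 0.11 (SE 0.12) and the mevalonate kinase gene Mvk at -0.04 (SE 0.08) on the same scale, with Mvk intensities between 228 and 239 in Angpt2 shRNA-1 cells and between 227 and 257 in control cells.

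From squalene to cholesterol, 9 of 11 enzymes had log2 fold changes above 0 (median 0.17). Over all 16 sterol enzymes 13 were above 0, with a median of 0.17, and without control replicate 1 the count was 11 and the median 0.07. Without control replicate 3 the count was 15 and the median 0.28. Ebp, the sterol isomerase, gave 802, 707 and 702 in Angpt2 shRNA-1 cells, against 626, 646 and 648 in control cells, so that every Angpt2 shRNA-1 array was above every control array. Its log2 level averaged 9.52 ± 0.11 in Angpt2 shRNA-1 cells and 9.32 ± 0.03 in control cells (SD, n = 3 each). The log2 fold change was 0.20 (SE 0.09, 95% interval 0.005 to 0.397), or 1.15-fold, and it stayed between 0.14 and 0.23 when any 1 array was left out. The unadjusted limma p of Ebp was 0.046, its adjusted p was 1.00 and its exact permutation p was 0.1. With the replicate number as a block its unadjusted limma p was 0.064, and with the trend and robust options it was 0.059.

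Dhcr7, the reductase of the final step, gave 1414, 1322 and 1463 in Angpt2 shRNA-1 cells, against 936, 1397 and 1148 in control cells. The groups overlapped through control replicate 2, and the log2 fold change was 0.29 (SE 0.14), or 0.14 without control replicate 1. Lss, the cyclase that forms lanosterol, gave 638, 529 and 704 in Angpt2 shRNA-1 cells, against 461, 523 and 652 in control cells. Its log2 fold change was 0.20 (SE 0.15), with control replicate 3 above the lower pair of Angpt2 shRNA-1 arrays, and 0.08 without control replicate 1.

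Tm7sf2, a sterol reductase, ran the other way. It gave 183, 181 and 183 in Angpt2 shRNA-1 cells, against 189, 198 and 186 in control cells, with every Angpt2 shRNA-1 array below every control array. The log2 fold change was only -0.07 (SE 0.08), and its adjusted p was 1.00. Unlike most of its neighbours in the pathway, Tm7sf2 was not highest on replicate 3 of the control group. Sqle, the squalene epoxidase, was the other enzyme of this stretch with a negative log2 fold change, -0.08 (SE 0.16). Its intensities were 816, 775 and 981 in Angpt2 shRNA-1 cells, against 743, 854 and 1155 in control cells, highest on replicate 3 in each group.

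Log2 fold changes of the remaining enzymes of this stretch lay close together. They were 0.19 (SE 0.20) for Fdft1, which makes squalene, 0.18 (SE 0.13) for the desaturase gene Sc5d, 0.17 (SE 0.18) for the methyl oxidase gene Msmo1, 0.17 (SE 0.27) for the ketoreductase gene Hsd17b7, 0.16 (SE 0.13) for the dehydrogenase gene Nsdhl and 0.13 (SE 0.09) for the demethylase gene Cyp51. Hsd17b7 varied most, at 197, 274 and 231 in Angpt2 shRNA-1 cells and 127, 291 and 237 in control cells, and its value was -0.18 without control replicate 1. Within the replicate numbers, 15 of the 16 sterol enzymes were positive in replicate 1, 9 in replicate 2 and 11 in replicate 3, with median differences of 0.32, 0.03 and 0.07. Over all genes these medians were -0.03, -0.02 and 0.003.

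**Figure D3:**
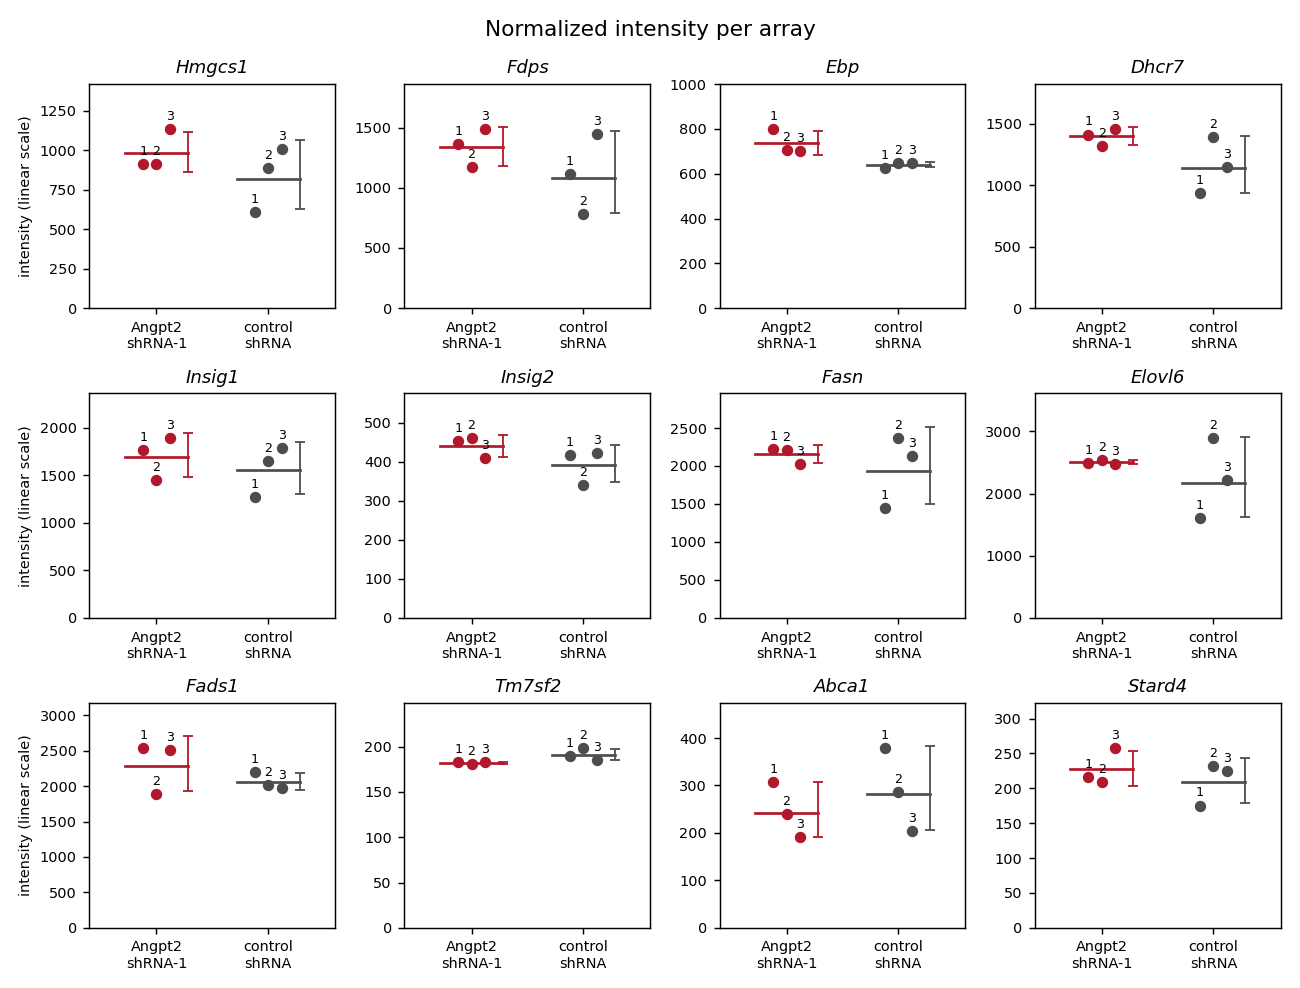
Normalized intensity on a linear scale for 12 members, with Angpt2 shRNA-1 arrays on the left and control shRNA arrays on the right; digits give the replicate number, lines the geometric mean and bars the standard deviation of log2 values (n = 3 each). Ebp and Tm7sf2 are the members without overlap, and control replicate 1 was the lowest array of Hmgcs1, Fasn and Elovl6, with control replicate 2 the highest of Elovl6.

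Log2 fold changes were above 0 for 5 of the 6 regulators (median 0.105), and without control replicate 1 for 3 of 6 (median 0.0198). Insig1, the retention protein whose own gene is an SREBP target, gave 1771, 1455 and 1889 in Angpt2 shRNA-1 cells, against 1276, 1649 and 1784 in control cells. The groups overlapped, with a log2 fold change of 0.13 (SE 0.14), or -0.02 without control replicate 1. Insig2, the second retention protein, gave 455, 461 and 409.5 in Angpt2 shRNA-1 cells, against 419, 341 and 424 in control cells. Its log2 fold change was 0.17 (SE 0.11), and its order of arrays differed from that of Insig1. In Angpt2 shRNA-1 cells replicate 3 was the highest Insig1 array but the lowest Insig2 array. In control cells replicate 3 was the highest array of both genes, for Insig2 by little over replicate 1.

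Stard4, a cytosolic sterol carrier, gave 217, 209.5 and 258 in Angpt2 shRNA-1 cells, against 175, 232 and 225 in control cells. The groups overlapped, with a log2 fold change of 0.12 (SE 0.13) and -0.01 without control replicate 1. The transcription factor genes themselves had log2 fold changes of 0.09 (SE 0.18) for Srebf1 and 0.09 (SE 0.12) for Srebf2. Srebf1 gave 502, 317 and 388 in Angpt2 shRNA-1 cells and 454, 307 and 366 in control cells, so its cultures were ordered by replicate number in the same way in each group, with replicate 1 highest. Srebf2 gave 866, 997 and 1175 in Angpt2 shRNA-1 cells and 898, 903 and 1046 in control cells, with replicate 3 highest in each group, as for most sterol enzymes. Scap was nearly constant, between 634 and 657 in Angpt2 shRNA-1 cells and between 636 and 665 in control cells (log2 fold change -0.02, SE 0.08), while its dimmer row gave a log2 difference of -0.12.

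All 8 fatty acid enzymes had log2 fold changes above 0, from 0.00 for Scd1 to 0.21 for Elovl6, with a median of 0.08. Without control replicate 1, 4 of the 8 were positive and the median was -0.01. Leaving out any other single array left 6 or 7 of the 8 positive, so the shared direction held only with all arrays kept. Elovl6, which elongates palmitate, gave 2496, 2537 and 2479 in Angpt2 shRNA-1 cells, against 1602, 2886 and 2214 in control cells. The Angpt2 shRNA-1 arrays lay inside the control range, the standard deviation of log2 values was 0.02 in Angpt2 shRNA-1 cells and 0.43 in control cells, and the log2 fold change was 0.21 (SE 0.18).

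Fasn, the fatty acid synthase, had the same shape, with 2227, 2215 and 2029 in Angpt2 shRNA-1 cells against 1445, 2364 and 2137 in control cells. The log2 fold change of Fasn was 0.15 (SE 0.16), or -0.06 without control replicate 1. Fads1, the delta-5 desaturase of polyunsaturated fatty acids, gave 2535, 1888 and 2506 in Angpt2 shRNA-1 cells, against 2205, 2009 and 1973 in control cells. Its log2 fold change was 0.15 (SE 0.12), with Angpt2 shRNA-1 replicate 2 below all control arrays. Leaving out 1 array gave 0.08 to 0.29, the highest being without Angpt2 shRNA-1 replicate 2.

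The remaining fatty acid genes were closer to 0. Acly, which cleaves citrate to acetyl-CoA, had a log2 fold change of 0.13 (SE 0.11), against 0.03 (SE 0.11) for the acetyl-CoA carboxylase gene Acaca, 0.02 (SE 0.14) for the acetyl-CoA synthetase gene Acss2 and 0.02 (SE 0.09) for the delta-6 desaturase gene Fads2. Scd1, the stearoyl-CoA desaturase, gave 2154, 1734 and 1950.5 in Angpt2 shRNA-1 cells and 1731, 2394 and 1758 in control cells, with a 95% interval of the log2 fold change from -0.32 to 0.32. Acss2, an SREBP target that feeds both pathways, was the fatty acid gene with replicate 3 highest in each group, at 262 in Angpt2 shRNA-1 cells and 229.6 in control cells.

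Of the efflux pumps, Abca1, which loads cholesterol onto apolipoprotein A-I, gave 308, 239.5 and 192 in Angpt2 shRNA-1 cells, against 379, 287 and 205 in control cells. Each Angpt2 shRNA-1 array was below the control array of the same number, by 0.30, 0.26 and 0.09 on the log2 scale. The groups nevertheless overlapped, and in each of them Abca1 fell from replicate 1 to replicate 3. The log2 fold change was -0.22 (SE 0.23), with a limma adjusted p of 1.00, or 0.997 when replicate number was fitted as a block. It was -0.002 without control replicate 1, the array with the highest Abca1, a value that keeps Angpt2 shRNA-1 replicate 1 without its partner, while the differences within replicates 2 and 3 remained negative as given above.

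Abca1 ordered the cultures in the reverse of the sterol enzymes at both ends: its deviations from its own mean were 0.24, -0.12 and -0.44 on Angpt2 shRNA-1 arrays 1, 2 and 3, and 0.54, 0.14 and -0.35 on control arrays 1, 2 and 3. Over the 6 cultures it correlated with the sterol median at r = -0.82 (Spearman's rho -0.83), and at r = -0.36 without the 2 cultures farthest from the sterol median, which were control replicate 1 and Angpt2 shRNA-1 replicate 3. This is a description of 6 arrays whose measures share their RNA. Abcg1, the pump that passes cholesterol to high-density lipoprotein, was dim, at 85.7, 80.8 and 86.0 in Angpt2 shRNA-1 cells and 90.1, 73.3 and 92.7 in control cells. Its log2 fold change was -0.01 (SE 0.11), and such signals cannot be told from background without detection calls.

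**Figure D4:**
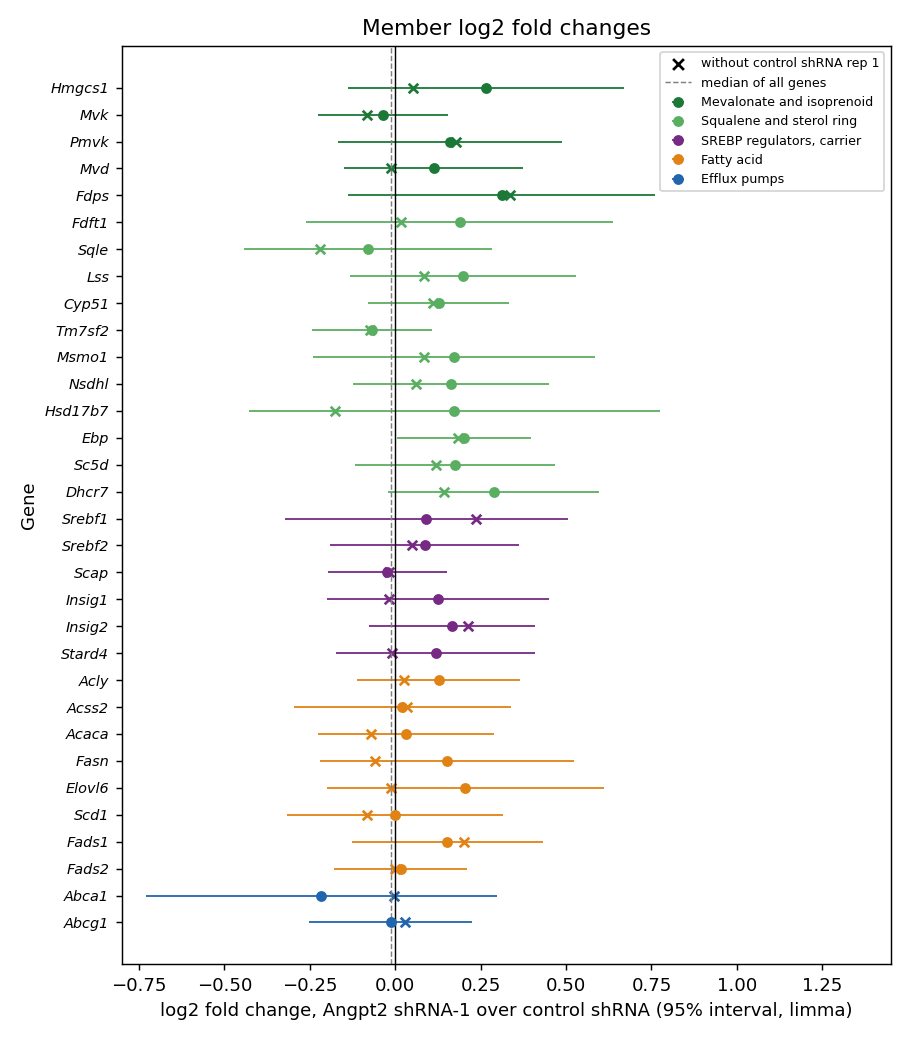
Log2 fold change of each of the 32 members, Angpt2 shRNA-1 over control shRNA, as circles with 95% limma intervals, and the same value without control replicate 1 as crosses; the dashed line marks the median of all genes. All intervals except that of Ebp include 0, and most crosses lie closer to 0 or below it.

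Genes around these pathways were counted from 4 lists drawn up by pathway role. None of their 60 measured genes passed the test in either direction. Arrays without overlap were found for 1 lower gene in each list. They were also found for 1 higher gene, among those for SREBP processing and turnover. Over all genes, 5.48% were lower and 3.53% higher without overlap. In the isoprenoid branch, which leads from farnesyl diphosphate to prenylated proteins, dolichol and ubiquinone, 4 of 10 log2 fold changes were above 0 (median -0.04). Ggps1, which makes geranylgeranyl diphosphate, gave 473, 453 and 440.4 in Angpt2 shRNA-1 cells, against 521, 504 and 507 in control cells. Its arrays did not overlap, with a log2 fold change of -0.16 (SE 0.08), while the prenyltransferase gene Pggt1b was at -0.13 (SE 0.10).

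Of 13 genes for SREBP processing and turnover and for its partner factors, 6 had a log2 fold change above 0 (median -0.01). Nfyc, a subunit of the CCAAT-binding factor NF-Y, gave 539, 507 and 438 in Angpt2 shRNA-1 cells, against 402, 424 and 366 in control cells. Every Angpt2 shRNA-1 array was above every control array, with a log2 fold change of 0.31 (SE 0.10) and adjusted p = 1.00. The other NF-Y subunit genes did not share this: Nfya was at -0.10 (SE 0.10) and Nfyb at -0.01 (SE 0.09), each with overlapping groups. Erlin2, which takes part in sterol-regulated protein turnover in the endoplasmic reticulum, was at -0.17 (SE 0.14).

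Of 22 genes for fatty acid supply, elongation and acylation, 13 had a log2 fold change above 0 (median 0.04). The fatty acid binding protein gene Fabp5 was at 0.31 (SE 0.13) and Mid1ip1, a partner of acetyl-CoA carboxylase, at -0.26 (SE 0.155). Of 15 genes for sterol transport, storage and LXR signalling, 7 had one above 0 (median -0.01). Tmem97, a sterol-responsive membrane protein, gave 1005, 1212 and 1069.6 in Angpt2 shRNA-1 cells, against 621, 1098 and 897 in control cells. Control replicate 1 was its lowest array, as for Hmgcs1 and Fasn, and its log2 fold change was 0.36 (SE 0.18). Stard5, a sterol-binding carrier, gave 226, 225 and 246 in Angpt2 shRNA-1 cells, against 355, 269 and 266 in control cells, with no overlap and a log2 fold change of -0.34 (SE 0.12). The adjusted limma p of each of these named genes was 1.00.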

How the data were processed

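Total RNA (100 ng per culture) was labelled with biotin and hybridised to Affymetrix Mouse Gene 2.0 ST arrays, per the labels' protocols. The deposited table held 1 normalized intensity per transcript cluster and array on a linear scale, from 28.1 to 12624 over 41345 clusters. For the authors' background correction, probe summary and normalization no method was stated in the labels, and no detection calls were used. From the deposited values log2 intensities were taken for the 40425 complete clusters with no pseudocount, keeping clusters with 1 gene symbol and, per gene, the cluster with the highest mean. The resulting 22180 genes were fitted with limma 3.58.1 in R 4.3.3 (lmFit, eBayes; 3 against 3 arrays, no block), and p-values were adjusted over all of them by the Benjamini-Hochberg method with a threshold of 0.05. Exact permutation tests were two-sided (scipy 1.17.1). The fit was first tested on simulated data.

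Arrays of the same number correlated in their deviations from the group means (0.128, 0.211 and 0.143), so the numbers may pair the arrays. The main fit did not use them. Every SE, interval and p-value given without the block is therefore from an unpaired comparison. A fit with the replicate number as a block was the alternative. Leaving out 1 array leaves its partner, the array of the same number in the other group, unmatched. Within groups, arrays correlated at 0.983 to 0.993. Precision was limited by having 3 arrays per group, and the median 95% half-width over genes was 0.23 on the log2 scale. Array values were given for members whose groups did not overlap or whose unadjusted p was under 0.05, and for the 3 members with the largest absolute log2 fold change in each role; from each of the 4 pathway lists the 2 genes with the largest absolute log2 fold change were named. Array values of other members, and the log2 fold changes of Nfya and Nfyb, were added after they were seen. The members and lists were chosen with earlier results of these data known. Other alternatives were quantile normalization, centring, filters on dim genes, other cluster rules, estimated array weights, the trend and robust options of eBayes, a pseudocount of 1 or of 16, and leaving out arrays.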

Additional observations from a re-analysis of the deposited data

How the results depend on the processing

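No member was called in either direction under any alternative run. Of 543 member values under 17 alternatives, 518 kept their direction and side of the threshold and 25 changed sign, in 15 members. The 518 do not measure stability. The block, the trend and robust options, the filters on dim genes and the use of all complete clusters leave a log2 fold change as it was, so no sign could change there. Apart from 1 change with array weights and 1 with a pseudocount of 16, all sign changes came from leaving out 1 array. Over all genes, 1 gene was called higher and 1 lower with the replicate number as a block, 1 higher with trend and robust options, and 1 lower with both replicate 1 arrays left out, an alternative chosen after seeing the data. Leaving out 1 array gave 0 to 1 higher and 0 to 1 lower. With the block, Angpt2 kept its log2 fold change of -1.33 and its limma adjusted p was 0.046; the block changed no other call than that of 1 gene outside the set. Leaving out 1 array moved Angpt2 between -1.61, without control replicate 1, where its limma adjusted p was 0.0116, and -1.14, without control replicate 2. The sterol enzyme median ranged from 0.07 (without control replicate 1) to 0.28 (without control replicate 3) and the fatty acid median from -0.01 (without control replicate 1) to 0.14 (without control replicate 2). When the arrays numbered 1, 2 or 3 were dropped from both groups, the fatty acid median was -0.04, 0.24 and 0.07 and the sterol median 0.07, 0.20 and 0.23, so the fatty acid median was the higher without replicate 2. Acss2 was at -0.0392 with array weights and Scd1 at -9.7e-07 with a pseudocount of 16. Leaving out 1 array gave ranges across 0 for Mvk (-0.0814 to 0.00800), Mvd (-0.0128 to 0.19), Sqle (-0.22 to 0.10), Hsd17b7 (-0.18 to 0.42), Srebf1 (-0.0816 to 0.25), Srebf2 (-0.0265 to 0.19), Insig1 (-0.0173 to 0.24), Stard4 (-0.00857 to 0.19), Acss2 (-0.13 to 0.11), Acaca (-0.0711 to 0.13), Fasn (-0.0603 to 0.295), Elovl6 (-0.0137 to 0.41), Scd1 (-0.0816 to 0.15), Fads2 (-0.0429 to 0.0562) and Abcg1 (-0.12 to 0.0495). The cause of these changes was not tested.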
